A study of Mus musculus with 10 samples.

Results

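The adult apex of mice whose cardiomyocytes carry a deletion of Larp7 was compared with the apex of floxed controls. The comparison rests on 4 of the 10 samples of the series, chosen by their genotype and age labels, and on every gene of the adult table. The controls (CTR) were Larp7f/f and the knockouts (mCKO) Myh6Cre;Larp7f/f, with 2 samples in each group. All were C57BL/6 mice of 4 months, and total RNA was taken from flash-frozen tissue of the heart apex. The other 6 samples are whole hearts at embryonic day E15.5 from Larp7 wild-type and knockout embryos, deposited in a table of their own.

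Both adult groups carry the floxed allele, and the knockouts alone carry Cre. A control with Cre and an intact Larp7 gene is not among the samples, so an effect of the Cre transgene and an effect of Larp7 loss cannot be told apart. The Myh6 promoter drives Cre in cardiomyocytes, so fibroblasts, endothelial cells, macrophages and the other cells of the apex keep the gene. In RNA from whole tissue, fewer cells of a type and less RNA per cell cannot be told apart. The labels do not state that each sample is from its own mouse. The p-values below therefore rest on the spread among these 4 samples, which may be technical. For 94.8% of genes that spread was pooled over genes of similar level and is not the gene's own.

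LARP7 is a La-related RNA-binding protein that binds the 3′ end of the noncoding RNA 7SK and keeps it stable. The 7SK particle, with HEXIM1 and the capping enzyme MEPCE, holds the kinase P-TEFb (CDK9 with a cyclin T) in an inactive state. Once released, P-TEFb phosphorylates RNA polymerase II and its pausing factors and lets transcription proceed into the gene body. The adult ventricle draws most of its energy from fatty acids, and under load its myocytes return to a set of fetal genes while fibroblasts lay down matrix.

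The adult table lists 15989 genes as scaled expression values rounded to whole numbers, and 14835 of them had a value of at least 1 in at least 2 samples and were tested. Column sums run from 999063 to 1000423 and say nothing of sequencing depth, which is unknown. In nearly every gene CTR 1 plus mCKO 1 equals CTR 2 plus mCKO 2. Changes were therefore taken within numbers, as log2(value + 1) of mCKO 1 minus CTR 1 and of mCKO 2 minus CTR 2, here called pairs 1 and 2. A gene was called when its adjusted p (limma with Benjamini-Hochberg adjustment) was under 0.05. In addition, both pairs had to move by at least 0.5 on the log2 scale in the same direction, without overlap of the groups. With these totals, pairs that move in the same direction already keep the groups from overlapping, so the last condition adds almost nothing.

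By this rule 152 genes rose in the mCKO apex (1.02% of the genes tested) and 53 fell (0.357%). Both mCKO values lay above both CTR values in 4347 genes, or 29.3%, and below them in 1896, or 12.8%. These shares are the background against which the counts below are to be read. With median-of-ratios scaling in place of the deposited one the split was 112 higher and 69 lower, so that 61.9% of the calls were higher instead of 74.1%.

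With 2 numbers per group a gene has 1 residual degree of freedom, and for 94.8% of genes limma used a spread pooled entirely over genes of similar level. The calls thus depend on that pooling. With the prior held at 4 degrees of freedom limma called 0 genes in either direction (757 had an unadjusted p under 0.05), and with the replicate block but no variance for rounding it called 350 higher and 97 lower genes, of which 19 and 3 are among the calls reported here. Of the 205 called genes, 40 had a standard error of their own more than 2 times the pooled one. On simulated tables in which the spread differed between genes, more of the calls were false than the nominal share, so single calls are to be read beside their values.

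**Figure D1:**
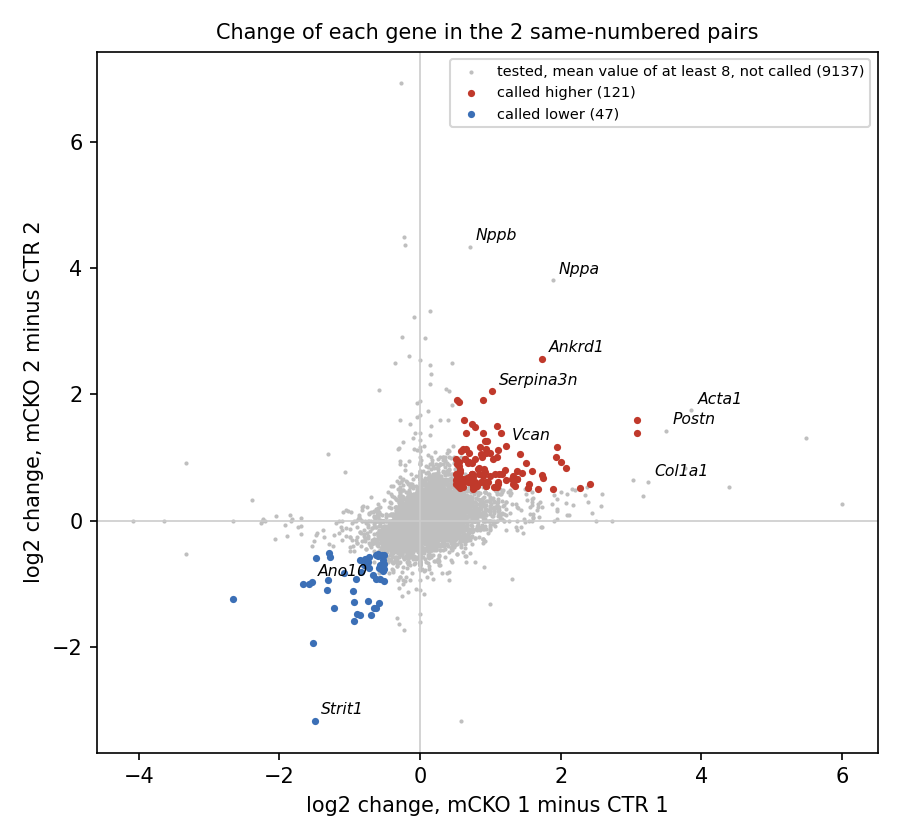
Log2 change of each tested gene with a mean of at least 8 in pair 1 (x axis, mCKO 1 minus CTR 1) and in pair 2 (y axis, mCKO 2 minus CTR 2). Red points are the 121 genes called higher and blue points the 47 called lower at this level. Nppa, Nppb, Acta1, Postn and Col1a1 lie in the upper right without a call. Their 2 changes differ widely, and limma tested them on their own spread instead of the pooled one (prior degrees of freedom of at most 8.55e-05).

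In several marker groups the samples of 1 group stood apart from each other, and this touches the results that follow. Number 1 had less collagen and skeletal-type actin RNA than number 2 in CTR and more in mCKO, whereas CTR 2 and mCKO 2 were the lowest and highest samples in natriuretic peptide and red cell RNA. For nearly every gene the CTR and mCKO values of number 1 add to the same total as those of number 2. The gap between the 2 controls of a gene and the gap between its 2 mCKO samples are mirror images of nearly the same size, and which group they come from cannot be told apart. Close values in 1 group thus come with close values in the other, and count as 1 observation and not 2. On the log2 scale the gap is larger in the group with the lower values. Summed over 7 erythroid markers, led by Hbb-bs, the values were 1486 and 129 in CTR and 1273 and 2888 in mCKO, so the groups overlapped. Summed over 8 epicardial markers they were 53 and 17 against 61 and 98. Across all tested genes the Pearson correlation between the changes of the 2 pairs was 0.26, a description over genes that are not independent replicates. In 42.1% of genes both pairs moved in the same direction, which with the fixed totals is nearly the same condition as no overlap.

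The markers of ventricular tissue were present at high values, and those of other organs were near 0. The 8 cardiomyocyte markers, among them Myh6, Tnnt2 and Myl2, summed to 58076 and 59100 in CTR and to 55414 and 54388 in mCKO. The atrial light chain Myl7 was at most 1 in every sample. Lung and airway markers summed to at most 1, and those of liver to between 4 and 6. The higher sums of the atrial list in mCKO (1239 and 1456 against 368 and 149) are mostly those of Nppa, and the higher sums of the skeletal muscle list (2399 and 2348 against 1397 and 1446) mostly those of Acta1 and Ckm, both of which the heart also expresses, while 4 of its 10 members were at 0 or not listed.

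**Figure D2:**
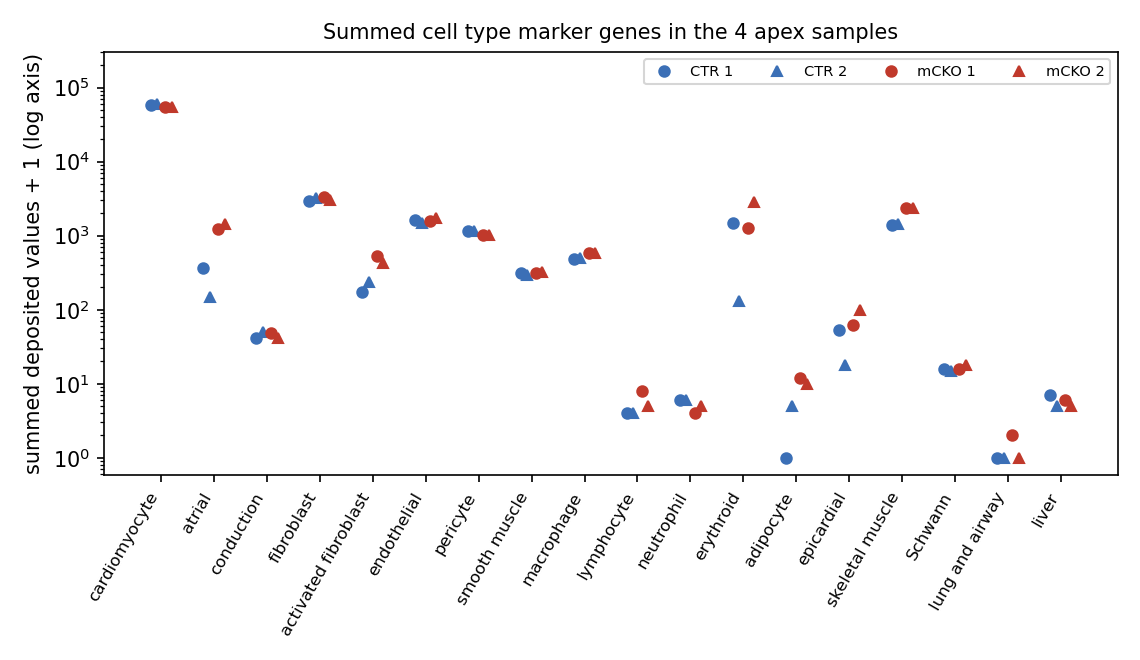
Summed deposited values plus 1 (log axis) of the marker genes of each cell type in the 4 apex samples; blue is CTR, red mCKO, circles are number 1 and triangles number 2. The activated fibroblast sums are higher in both mCKO samples (524 and 428) than in both CTR samples (173 and 239), and the erythroid sum of CTR 2 (129) lies below the other 3.

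Larp7 itself, on the minus strand of chromosome 3 (127536714 to 127553349, GENCODE annotation of mm10), did not check the genotype labels. It was 26 and 28 in CTR and 26 and 24 in mCKO, log2 -0.11 (SE 0.17, limma adjusted p = 0.934). The 2 groups met at 26. The floxed exons, and the share of Larp7 RNA that comes from cells without Cre, are not stated in the sources used here.

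No partner of LARP7 was called, and Hexim1 came nearest to a call. In the list of 7SK and P-TEFb genes 0 of 21 tested members were called (limma; 2 higher and 0 lower at an unadjusted p under 0.05). Hexim1, which inhibits the kinase once bound to 7SK, was 28 and 36 in CTR and 53 and 44 in mCKO, without overlap, at log2 0.59 (SE 0.16, limma adjusted p = 0.00917). Its change of 0.28 in pair 2 missed the 0.5 that the call requires. Cdk9, the kinase subunit, was 20 in all 4 samples. Its cyclin partner Ccnt1 was 22 and 24 against 24 and 22. Ccnt2 was 38 and 32 against 26 and 32, with log2 changes of -0.53 in pair 1 and 0.00 in pair 2. Mepce, the enzyme that caps 7SK, was 32 and 34 against 35 and 32. The 7SK RNA (Rn7sk) had a value of 1 in CTR 1 and 0 in the other 3 samples and was not tested.

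Genes of the fetal and load-induced programme of myocytes rose in part in the mCKO apex. In this list of 37 genes, 35 were tested and 35 had a positive change, 7 rose and 0 fell, and 27 did not overlap between groups. The median log2 change was 0.50 (0.585 in pair 1 and 0.317 in pair 2), against 0.08 over all tested genes. The 7 are Ankrd1, Ankrd23, Gdf15, Myh7, Mybpc2, Tnnt1 and Uchl1. Across settings the count ran from 0 (with the block and no variance for rounding) to 16 of 35 (without CTR 2), and without CTR 1 it was 11.

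Ankrd1, on chromosome 19 (36111961 to 36120099, minus strand), encodes a stretch-responsive protein that binds titin in the sarcomere and also acts in the nucleus. It was 1296 and 812 in CTR and 4322 and 4804 in mCKO. Both mCKO values were more than 3 times the higher control, and the log2 change was 2.15 (SE 0.13, or 0.41 from the gene's own spread). Its adjusted p was 5.77e-52 (limma), a value that rests on the pooled spread: without the replicate block, without the variance for rounding, with the prior at 4 degrees of freedom, without mCKO 1 or without mCKO 2 it was not called. Its relative Ankrd23, chosen for naming after its values were seen, rose from 13 and 10 to 21 and 23.

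Contractile genes of slow and skeletal muscle were among the 7. Myh7 encodes the slow myosin heavy chain of fetal ventricle and is on chromosome 14 (54970684 to 54994626, minus strand). It was 270 and 468 in CTR and 1090 and 892 in mCKO (log2 1.47, SE 0.14, adjusted p = 3.63e-16, limma). The groups did not overlap, as a call requires, and the call was lost under the same 5 settings as that of Ankrd1. Mybpc2 encodes the myosin-binding protein C of fast skeletal muscle and rose from 17 and 25 to 53 and 44 (log2 1.19, SE 0.16, adjusted p = 2.53e-10, limma). Tnnt1, the slow skeletal troponin T, rose from 14 and 12 to 26 and 28 (log2 1.00, SE 0.19, adjusted p = 1.82e-05, limma). The lower mCKO sample was above the higher control in both, as a call requires. Myh6, the main myosin of the adult mouse ventricle, was 19222 and 19325 against 17008 and 16906, a log2 change of -0.19 that was not called (adjusted p = 0.608, limma).

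Some well known stress genes had wide gaps between groups and no call. A rise past 1 on the log2 scale in both pairs was seen in 16 genes whose mean reached 8, and 12 of them were called. The 4 not called were Nppa, Acta1, Postn and Nmrk2 (the last named after its values were seen). For these 4 limma set the prior degrees of freedom at 8.55e-05 or less, so each was tested on its own spread. Their adjusted p-values are thus not comparable with those of genes tested on the pooled spread, such as Ankrd1. Acta1, the skeletal alpha-actin that the fetal heart uses, was 68 and 244 in CTR and 997 and 821 in mCKO (log2 2.80, SE 1.05, adjusted p = 0.76, limma). Both mCKO samples exceeded both controls, and the gap within each group was the same, as the fixed totals require. Postn, a matricellular protein of activated fibroblasts, was 20 and 69 against 237 and 187 (adjusted p = 0.789, limma). Nmrk2, a nicotinamide riboside kinase of muscle, was 0 and 12 against 44 and 31 (adjusted p = 0.877, limma). Nppa, Acta1 and Postn were called by limma without the robust option and when either control was left out. The latter fits rest on a lone control. The same genes were not called without mCKO 1, without mCKO 2 or under any other setting.

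The start regions of the called stress genes are shown because these genes rose together and 3 of the 7 share a short motif there. The motif, M-CAT, is the binding sequence of TEAD factors and was searched as CATTCC on both strands in the 250 bases before the annotated start. It was present in 42.9% of the 7 genes (Ankrd1, Mybpc2 and Myh7). The share was 14.7% of 116 called higher genes with a start region in the table and 19.4% of 36 called lower genes. It was 10.8% of 10539 tested genes and 12.6% of 27025 mouse genes. Further motifs were searched in the same window and on both strands. TATAAA, the core promoter element, was in 1 of the 7 genes (14.3%, against 6.7% of tested genes). AGATAA, a form bound by GATA factors, was in 2 (28.6%, against 5.9% of tested genes), so M-CAT is not alone in exceeding the background. TATTTNTA, bound by MEF2, the AP-1 element TGANTCA and the CArG box of serum response factor were in 0 of the 7. Their shares of tested genes were 2.9%, 4.3% and 1.2%. Among all called higher genes the AP-1 element was in 10.3%. None of the motifs contains another. A match is a description of letters and not a site of binding. The sequences are from RefSeq in the build GRCm38.p6, written 5′ to 3′ on the strand of the gene and ending at the base before its start, with M-CAT matches in capitals. The RefSeq start of Ankrd1 lies inside the gene as GENCODE draws it, so the window of Ankrd1 is within the GENCODE gene given above. Ankrd1 has 2 of them, starting 210 and 123 bases before the start, Myh7 has 1 at 201 and Mybpc2 has 1 at 62.
Ankrd1, chr19:36119845-36120094, minus strand: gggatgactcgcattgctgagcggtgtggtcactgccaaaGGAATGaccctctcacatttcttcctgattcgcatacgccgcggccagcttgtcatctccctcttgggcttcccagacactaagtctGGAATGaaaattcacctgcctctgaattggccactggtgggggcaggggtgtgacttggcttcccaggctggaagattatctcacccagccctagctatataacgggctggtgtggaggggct
Myh7, chr14:54994627-54994876, minus strand: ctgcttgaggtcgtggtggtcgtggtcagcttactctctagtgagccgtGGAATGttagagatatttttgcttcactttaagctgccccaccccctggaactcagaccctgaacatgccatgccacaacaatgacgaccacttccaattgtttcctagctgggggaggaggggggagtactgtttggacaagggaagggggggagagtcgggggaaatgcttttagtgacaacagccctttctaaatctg
Mybpc2, chr7:44524670-44524919, minus strand: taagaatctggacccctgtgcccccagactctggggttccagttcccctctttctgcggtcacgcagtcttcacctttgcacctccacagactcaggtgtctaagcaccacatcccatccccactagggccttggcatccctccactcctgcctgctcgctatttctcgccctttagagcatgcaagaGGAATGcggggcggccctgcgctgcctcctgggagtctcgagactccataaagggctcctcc

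**Figure D3:**
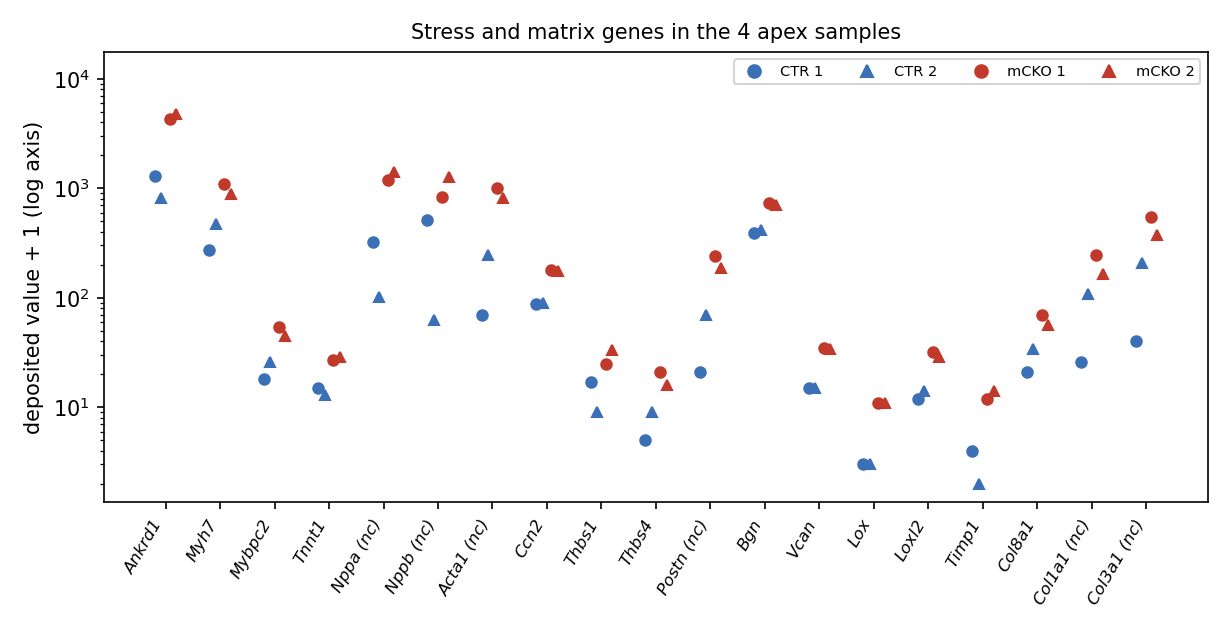
Deposited values plus 1 (log axis) of stress and matrix genes in the 4 apex samples; blue is CTR, red mCKO, circles are number 1, triangles number 2, and nc marks genes that were not called. Ccn2 and Vcan show narrow groups set apart. Ankrd1 groups are also set apart, with a wider gap in CTR (1296 and 812). Nppa, Nppb, Acta1, Postn, Col1a1 and Col3a1 spread widely, which the log axis shows more in the lower group.

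Matricellular proteins sit in the matrix and signal to cells without bearing load, and several of them rose. Of 24 listed genes 22 were tested, 7 rose and 0 fell (limma). The median log2 change was 1.00, with 1.37 in pair 1 and 0.39 in pair 2. The genes that rose are Mfap4, Mfap5, Thbs1, Thbs4, Ccn2, Ccn5 and Fstl1. Ccn2 encodes connective tissue growth factor, a target of mechanical and TGF-beta signals, and was 86 and 88 in CTR against 177 and 174 in mCKO (log2 1.00, SE 0.15, adjusted p = 4.05e-09, limma). Replicates of Ccn2 differed by at most 3, a gap that the fixed totals repeat in both groups, and the groups by a factor of 2.02. Mfap5, a microfibril protein of fibroblasts, was 36 and 32 against 81 and 85, and Fstl1, a secreted glycoprotein of the same cells, 82 and 115 against 226 and 194. Thbs4, a thrombospondin of stressed muscle, was 4 and 8 against 20 and 15. Sparc, a collagen-binding protein of the matrix, was 321 and 428 against 710 and 603, and its change of 0.49 in pair 2 lay just under the call limit. Ccn1, a close relative of Ccn2, was 52 and 44 against 41 and 49, with overlap.

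Some enzymes that process and cross-link collagen rose, 4 of the 12 tested. Of all 32 tested matrix enzymes and inhibitors 7 rose and 0 fell, against 1.02% and 0.357% of all tested genes. Their median log2 change was 0.36, with 0.56 in pair 1 and 0.13 in pair 2. Lysyl oxidases join collagen and elastin fibres covalently: Lox was 2 and 2 in CTR against 10 and 10 in mCKO (log2 1.87, SE 0.33, adjusted p = 3.32e-06, limma), and Loxl2 11 and 13 against 31 and 28 (log2 1.23, SE 0.19, adjusted p = 1.84e-08, limma). Both groups were tight in these genes, which with the fixed totals is 1 observation and not 2. Loxl1, named after its values were seen, was 38 and 42 against 65 and 62. Pcolce, which enhances the cleavage of procollagen, was 61 and 72 against 120 and 110, and Timp1, an inhibitor of matrix metalloproteinases, 3 and 1 against 11 and 13. Ctsk, a collagen-degrading cathepsin, was 5 and 5 against 11 and 10. Serpinh1, the collagen chaperone of the endoplasmic reticulum, was 254 and 333 against 346 and 268 and was not called.

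Proteoglycans of the matrix gave 3 calls among 9 tested genes, all higher, against 1.02% called higher over all tested genes. Of the 9 basement membrane genes in the same list 0 were called by limma, and over all 18 genes 10 were higher and 1 lower at an unadjusted p under 0.05. Vcan, the large proteoglycan versican, was 14 and 14 in CTR and 34 and 33 in mCKO (log2 1.20, SE 0.18, adjusted p = 1.06e-08, limma), with neighbouring replicates and a factor of 2.39 between groups. Bgn, biglycan, was 386 and 413 against 731 and 705 (log2 0.85, SE 0.14, adjusted p = 6.08e-07, limma). Fmod, fibromodulin, was 6 and 4 against 10 and 12. Decorin (Dcn) was 836 and 733 against 965 and 1069, without overlap and without a call (adjusted p = 0.126, limma).

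Collagen chains, which form the fibres and sheets of the matrix, differed between the pairs, with a median log2 change of 1.60 in pair 1 and 0.10 in pair 2. Of 23 tested chains 15 had no overlap, all with mCKO higher, against 29.3% over all tested genes, and 2 were called. The called chains were Col8a1, a short-chain collagen of vessel and valve, at 20 and 33 against 69 and 55, and Col4a3, a basement membrane chain, at 2 and 3 against 8 and 7. The fibrillar chain Col1a1 was 25 and 107 in CTR and 245 and 163 in mCKO (adjusted p = 0.902, limma), and Col3a1 39 and 208 against 543 and 373 (adjusted p = 0.881, limma). As with Nppa, limma tested both genes on their own spread (prior degrees of freedom of 5.23e-12 and 1.36e-16). CTR 1 was the lowest and mCKO 1 the highest sample in both genes. Col1a1 and Col3a1 were called without CTR 1 or without CTR 2, in fits that rest on a lone control. Neither was called without mCKO 1 or without mCKO 2.

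Markers of activated fibroblasts were higher in mCKO, while the sums of general fibroblast markers overlapped although most of these markers were higher. The marker lists are not independent of the matrix lists: Thbs4, Postn, Comp, Cilp and Cthrc1 are in both the activated and the matricellular list, Mfap5 in the fibroblast and the matricellular list, and Col1a1, Lum and Dcn in the fibroblast and a matrix list. Summed over 8 markers of activated fibroblasts, the values were 173 and 239 in CTR and 524 and 428 in mCKO, and 2 of 7 tested members rose. These were Thbs4 and Meox1 (18 and 14 against 28 and 32), a transcription factor of activated fibroblasts, and Cthrc1, which defines the most activated state, was at most 1. Fibroblast markers as a whole summed to 2968 and 3191 against 3294 and 3072, with overlap. The largest part of these sums is Gsn, which was lower in mCKO (1618 and 1814 against 1386 and 1190). Of the 10 markers, 7 did not overlap with mCKO higher and 2 with mCKO lower, against 29.3% and 12.8% of all tested genes. Their median log2 change was 0.37, and 1 of them, Mfap5, was called. The general markers Pdgfra (44 and 51 against 50 and 44) and Tcf21 (10 and 10 against 14 and 13) gave no call. The part of these cells in the matrix result was not tested.

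Growth factors and their receptors gave single calls. Tgfb2, a TGF-beta ligand, was 11 and 14 in CTR against 26 and 24 in mCKO and was the 1 called member of 21 in the TGF-beta list. Tnfrsf12a, the receptor of the cytokine TWEAK, was 47 and 38 against 101 and 109 (log2 1.29, SE 0.15, adjusted p = 1.29e-14, limma). Among 24 growth factor and renin-angiotensin genes 3 rose. These were Igf1 at 20 and 20 against 33 and 33, Hbegf, a ligand of the EGF receptor, at 12 and 12 against 22 and 22, and Edn3, an endothelin, at 2 and 4 against 10 and 8. Ace, angiotensin-converting enzyme, was 55 and 71 against 99 and 82 and was not called, since its change in pair 2 was 0.21. The groups did not overlap in any of these genes, which the rule requires of the called ones.

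Some genes of cell stress and of the p53 response rose. Gdf15, a secreted factor of cell stress, was 1 and 4 in CTR and 16 and 14 in mCKO. Cdkn1a, the cell cycle inhibitor p21 and a p53 target, was 48 and 44 against 88 and 92 (log2 0.95, SE 0.15, adjusted p = 5.95e-08, limma). Phlda3, an inhibitor of AKT and also a p53 target, was 10 and 17 against 41 and 35. These 2 were the called members of 25 tested p53 targets, whose median was 0.26. Ccng1, a cyclin induced by p53, was 988 and 826 against 1243 and 1405, without overlap, and its change of 0.33 in pair 1 was under the limit.

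In the cell cycle list 4 of 37 tested genes rose and 0 fell. The median log2 change was 0.47, with 0.74 in pair 1 and 0.19 in pair 2. Mki67 (1 and 5 in CTR against 11 and 8 in mCKO), Top2a (2 and 5 against 12 and 9) and Tpx2 (0 and 2 against 5 and 4) mark dividing cells, and all were at low values where rounding is coarse. Ccnd2, a D-type cyclin, was 106 and 138 against 248 and 215 (log2 0.93, SE 0.15, adjusted p = 7.14e-08, limma). The replication factor Pcna was 24 and 28 against 34 and 32 and was not called. With a pseudocount of 4 the calls of Mki67 and Tpx2 were lost. The cell type in which these genes were transcribed was not measured.

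The integrated stress response, a programme of ATF4 that answers mitochondrial and amino acid stress, had a median log2 change of 0.23 over 21 tested genes. None was called by limma, and 5 were higher and 0 lower at an unadjusted p under 0.05. The median was 0.485 in pair 1 and 0.144 in pair 2. Atf4 was 105 and 104 in CTR and 109 and 110 in mCKO, and Mthfd2, a mitochondrial folate enzyme, 2 and 7 against 13 and 9. The latter was past the adjusted threshold (adjusted p = 0.00103, limma) but moved by 0.32 in pair 2. Interferon-induced genes did not overlap in 18 of 21 cases, 16 of them higher, against 29.3% higher and 12.8% lower over all tested genes. Their median log2 change was 0.65 in pair 1 and 0.23 in pair 2. Ifi44 alone was called, at 5 and 13 against 28 and 19, and that call was lost without mCKO 1 or mCKO 2. Antigen presentation genes had a negative median of -0.26 over 12, with 0 called by limma and 0 higher and 5 lower at an unadjusted p under 0.05.

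Of the acute phase genes, Serpina3n rose. Serpina3n, a secreted protease inhibitor, was 26 and 15 in CTR and 54 and 65 in mCKO (log2 1.54, SE 0.16, adjusted p = 4.08e-17, limma). The call was lost without the replicate block. C3, the central complement component, was 394 and 313 against 549 and 631, past the adjusted threshold but with a change of 0.48 in pair 1 that is under the limit. Macrophage markers summed to 486 and 501 against 588 and 575, and 0 of 11 were called (limma; 5 higher and 0 lower at an unadjusted p under 0.05). Cd68 was 18 in all 4 samples. Endothelial markers summed to 1634 and 1476 against 1571 and 1729, with overlap.

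Other large rises had no common role. Kif26b, a kinesin, was 1 and 4 in CTR and 16 and 12 in mCKO. Pygl, the liver form of glycogen phosphorylase, was 7 and 11 against 30 and 26. Pde3b, a phosphodiesterase of cyclic nucleotides, was 6 and 6 against 14 and 13, and Lrp11, a receptor-related membrane protein, 5 and 5 against 12 and 12. Each of the 4 had both mCKO samples at 2 times the higher control or more. They were named for a large smaller pair change, so a wide gap follows in part from that choice. Among channels, Hcn2 (a pacemaker channel) was 31 and 29 against 46 and 49 and was called. Its call was lost with median-of-ratios scaling. The brain-type creatine kinase Ckb, which is prominent in the fetal heart, rose from 46 and 46 to 77 and 76.

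Enzymes of fatty acid oxidation were among the genes that fell. Of 42 tested genes 3 fell and 0 rose, 31 did not overlap with mCKO lower, and the median log2 change was -0.31, with -0.30 in each pair. At an unadjusted p under 0.05 limma gave 22 lower and 2 higher. With the block and no variance for rounding, or with the prior at 4 degrees of freedom, 0 were called, with median-of-ratios scaling 5 fell, with the adjusted p alone 13, and leaving out 1 sample at a time gave between 6 and 8 lower and at most 2 higher.

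Ech1 encodes an isomerase that prepares unsaturated fatty acids for beta-oxidation and is on chromosome 7 (28825217 to 28832247, plus strand). It was 1211 and 1371 in CTR and 652 and 493 in mCKO, and the mCKO mean was 0.444 of the CTR mean. The log2 change was -1.18 (SE 0.14, adjusted p = 2.44e-14, limma). Decr1, the reductase that acts on the same class of fatty acids, fell from 387 and 416 to 269 and 240 (log2 -0.66, SE 0.14, adjusted p = 0.000443, limma). Acaa2, the thiolase of the last step, fell from 635 and 666 to 444 and 412 (log2 -0.60, SE 0.14, adjusted p = 0.00154, limma).

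Other members of the pathway were not called, and their values are given as examples. The trifunctional protein subunit Hadha was 1471 and 1585 in CTR and 1114 and 1000 in mCKO, and the dehydrogenase Acadm 1018 and 1017 against 745 and 746. Cpt2, of the carnitine shuttle, was 242 and 230 against 154 and 165. Lpl, the lipase that releases fatty acids from lipoproteins, was 5448 and 5075 against 3730 and 4104 (log2 -0.43, SE 0.13, adjusted p = 0.0274, limma), past the test but with a fall of 0.31 in pair 2. In none of these 4 did the groups overlap. Cpt1b, the carnitine acyltransferase of muscle, was 13 and 12 against 12 and 13, and the regulator Ppara was 26 and 30 against 32 and 28. Pdk4, a kinase that blocks pyruvate entry and a PPAR target, was 247 and 288 against 365 and 324, in the opposite direction, with no call.

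**Figure D4:**
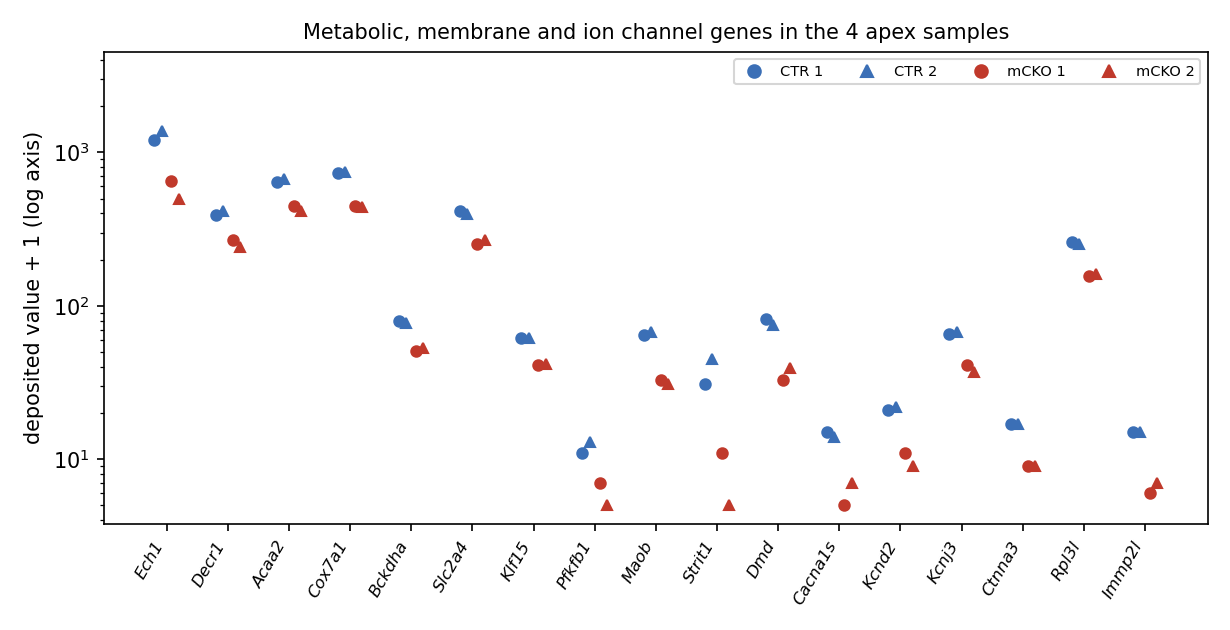
Deposited values plus 1 (log axis) of genes that fell in the mCKO apex, all of them called; blue is CTR, red mCKO, circles are number 1 and triangles number 2. In each gene both mCKO values lie below both CTR values, as a call requires. Ech1 went from 1211 and 1371 to 652 and 493 and Strit1 from 30 and 44 to 10 and 4.

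Fuel use beyond fatty acids moved in part. Slc2a4, the insulin-responsive glucose transporter GLUT4, fell from 414 and 398 to 250 and 266 (log2 -0.65, SE 0.14, adjusted p = 0.00049, limma), and Pfkfb1, a regulator of glycolysis, from 10 and 12 to 6 and 4, among 22 glucose genes with a median of 0.08. Bckdha, a subunit of the branched-chain keto acid dehydrogenase, fell from 78 and 76 to 50 and 52. It was the 1 call among 19 genes of ketone and branched-chain use, all 19 of which had a negative change (median -0.30). Klf15, a transcription factor that drives both lipid and branched-chain use in the heart, fell from 61 and 61 to 40 and 41 (log2 -0.58, SE 0.15, adjusted p = 0.00757, limma). Maob, the mitochondrial monoamine oxidase, fell from 63 and 66 to 32 and 30 (log2 -1.03, SE 0.15, adjusted p = 9.52e-09, limma). In all 5 genes the groups were apart, as a call requires.

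Of the nuclear genes of the tricarboxylic acid cycle and respiratory chain a single one fell, while most had both mCKO values below both controls. In the tricarboxylic acid cycle 0 of 23 were called (limma; 0 higher and 9 lower at an unadjusted p under 0.05) and 17 did not overlap with mCKO lower, at a median of -0.23. In complex I 0 of 36 were called (0 higher and 9 lower at an unadjusted p under 0.05) and 32 did not overlap, at a median of -0.17. In complexes II to V 1 of 45 fell and 35 did not overlap with mCKO lower, at a median of -0.18. That gene is Cox7a1, the muscle form of a cytochrome oxidase subunit, which went from 732 and 738 to 444 and 438 (log2 -0.74, SE 0.14, adjusted p = 3.01e-05, limma). Its replicates differed by at most 6, a gap that the fixed totals repeat in both groups. Over all tested genes 12.8% had no overlap with mCKO lower, and genes of the same samples are not independent of each other.

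For the RNAs of the mitochondrial genome and the genes of the mitochondrial ribosome the medians were near 0. The 13 mitochondrially encoded genes had a median of 0.05, which turned to -0.02 with median-of-ratios scaling, and 0 were called (limma; 1 higher and 1 lower at an unadjusted p under 0.05). In 75 genes of the mitochondrial ribosome the median was -0.01 and 0 were called (1 higher and 3 lower at an unadjusted p under 0.05). The difference between these lists and the respiratory chain genes was not tested.

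Regulators of mitochondrial biogenesis, the process named in the title of the series, gave 0 calls among 25 tested genes (limma; 1 higher and 0 lower at an unadjusted p under 0.05), at a median of -0.02. Ppargc1a, the coactivator PGC-1alpha, was 108 and 110 in CTR and 92 and 90 in mCKO, log2 -0.26 (SE 0.15, limma adjusted p = 0.502). Its groups did not overlap, a pattern that 12.8% of all tested genes share. Ppargc1b was 18 and 22 against 26 and 20, Sirt1 16 and 16 against 18 and 18, Tfam 42 and 40 against 42 and 43, and Esrra 149 and 168 against 157 and 137. None of these 4 was called.

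**Figure D5:**
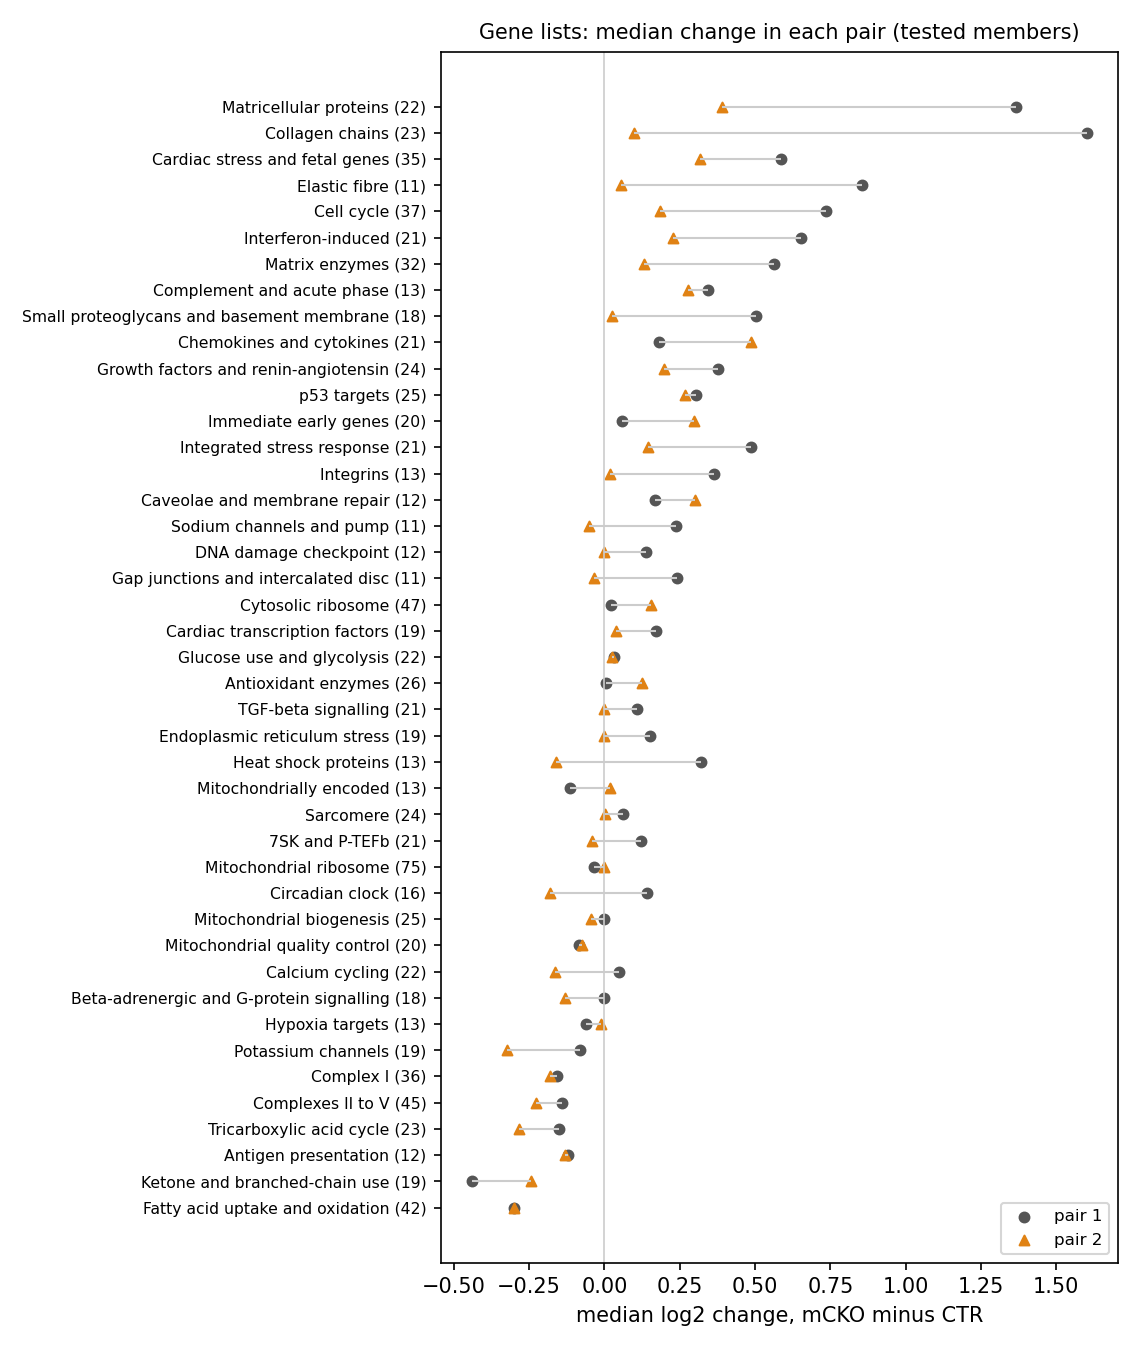
Median log2 change over the tested members of each gene list (number tested in parentheses) in pair 1 (grey circles) and pair 2 (orange triangles), mCKO minus CTR, for lists with at least 10 tested members. Fatty acid, complex I and complex II to V genes lie left of 0 at nearly the same place in both pairs, whereas collagen chains are at 1.60 in pair 1 and 0.10 in pair 2.

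Genes of the membrane, of calcium handling and of cell contacts were among the large falls. Strit1, which encodes the small peptide DWORF that stimulates the calcium pump SERCA, was 30 and 44 in CTR and 10 and 4 in mCKO (log2 -2.33, SE 0.23, or 0.84 from its own spread; adjusted p = 1.97e-11, limma). The call was lost without the replicate block and without CTR 1. Dmd, dystrophin, which ties the cytoskeleton to the matrix through the membrane, is on chromosome X (82948870 to 85206141, plus strand). It was 81 and 74 against 32 and 38 (log2 -1.13, SE 0.15, adjusted p = 6.84e-11, limma). Cacna1s, the skeletal L-type calcium channel, was 14 and 13 against 4 and 6. Ctnna3, the alpha-catenin of the intercalated disc, was 16 and 16 against 8 and 8. In all 4 genes both mCKO values lay below both controls, as a call requires.

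Of 19 tested potassium channel genes 2 fell and 0 rose, against 0.357% and 1.02% of all tested genes. Kcnd2 encodes a channel of the transient outward current and was 20 and 21 in CTR and 10 and 8 in mCKO (log2 -1.11, SE 0.21, adjusted p = 2.42e-05, limma). Kcnj3 encodes a subunit of the acetylcholine-gated channel and was 64 and 66 against 40 and 36 (log2 -0.76, SE 0.15, adjusted p = 9.01e-05, limma). Both replicates of each group lay close together, and with the fixed totals closeness in 1 group brings it in the other. Kcnip2, the partner subunit of Kcnd2, was 229 and 230 against 264 and 263 and was not called.

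Calcium cycling genes gave 0 calls among 22 (limma; 1 higher and 5 lower at an unadjusted p under 0.05). Atp2a2, the SERCA pump itself, was 11723 and 11937 in CTR and 9092 and 8879 in mCKO (log2 -0.40, SE 0.12, adjusted p = 0.0379, limma). It was past the adjusted threshold, and its change was under the 0.5 that a call requires. Pln, the inhibitor of the pump, was 1661 and 1592 against 1361 and 1431, and Ryr2, the release channel, 1017 and 1183 against 1178 and 1011. The groups were apart in Atp2a2 and Pln and overlapped in Ryr2.

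The other large falls were of genes with unlike roles. Ano10, a membrane protein of the anoctamin family, was 60 and 52 in CTR and 20 and 26 in mCKO (log2 -1.26, SE 0.16, adjusted p = 5.75e-12, limma). Slf1, a factor of DNA repair, was 20 and 20 against 8 and 7, and Immp2l, a protease of the inner mitochondrial membrane, 14 and 14 against 5 and 6. Rhbdl3, of the rhomboid family, was 18 and 15 against 5 and 7, and Armh4 was 20 and 23 against 10 and 7. For these 5 genes the higher mCKO value was at most 0.5 of the lower control, which follows in part from naming by the smaller pair change. Rpl3l, the muscle form of a ribosomal protein, named after its values were seen, fell from 259 and 253 to 155 and 160.

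Values in the embryonic table were set beside the adult ones as a description, since the tables were scaled separately and the models differ in which cells lack Larp7. Larp7 had a log2 change of -1.04 in the mean of 3 same-numbered pairs at E15.5. Of the 152 genes that rose in the adult, 116 were in the embryonic table by symbol, and 78.4% of these had a positive change there, against 62.2% of 9953 adult genes tested that were found in it. Of the 53 that fell, 37 were in the embryonic table, with 19 positive and 15 negative. Among the matrix genes, Bgn had an embryonic log2 change of 0.71 and Vcan of 0.69, whereas Mfap5 had -0.18. Ech1 had -0.09 and Decr1 -0.35.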

How the data were processed

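RNA was aligned and counted with HISAT2 and HTSeq on the build mm10, per the submitters' processing notes; the sources used here give no versions, strand or scaling. The authors deposited a score per gene and sample, a per-million value rounded to whole numbers. In 8642 of 8658 genes with a mean of at least 10 (99.82%), CTR and mCKO values of the same number add to the same total within 2, against 28.56% for crossed numbers. Same-numbered samples thus deviate from the group means as mirror images (correlation over genes -0.35 on the log2 scale). This holds by construction and is not a pairing in the labels.

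The limma package (3.58.1, R 4.3.3) fitted group and number to log2(value + 1), with the rounding variance (0.0833 on the scale of the values) added to each gene's variance, eBayes with trend and robust options, and Benjamini-Hochberg adjustment at 0.05. An exact permutation test of 2 against 2 samples cannot go below p = 0.333 (two-sided) and was not used. On simulated data the fit held false calls near the nominal share where spread was alike in genes of 1 level, and well above it where spread differed between genes.

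Members and lists were chosen with earlier results of these data known. Named genes are Larp7 and the 7SK list, the 12 largest rises and falls by the smaller pair change among calls whose mean reached 8 (unnamed genes left out), in each list up to 6 called members and the one with the highest values, and a set of cardiac genes; others are said to be named after their values were seen. List members given in the text with values beyond these are examples chosen for their role, also with values known. Symbols changed to dates in the table (20) entered no list. Gene positions are from GENCODE vM21. Without a stated strand, reads of Timp1 and Syn1, Myh7 and Mhrt, or Dmd and the genes within it cannot be told apart, and near-identical genes such as Acta1 and Actc1 may share reads.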

Additional observations from a re-analysis of the deposited data

Results flagged for a closer look

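Among the named genes called in the adult, 2 had a change of the opposite sign in every one of the 3 embryonic pairs. Tnnt1, which rose in the mCKO apex, had a mean log2 change of -0.20 at E15.5 (mean value 113.2). Kcnj3, which fell in the mCKO apex, had a mean log2 change of 0.76 at E15.5 (mean value 27.7). The difference between the adult and the embryonic change was not tested, since the tables were scaled separately.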

How the results depend on the processing

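Leaving out 1 sample at a time, in fits without the replicate block that ask for a mean change of at least 0.5 and assume that a lone sample varies like the others, gave 309 to 694 higher and 133 to 202 lower genes by limma (the conditions on both pairs do not apply there; the cause of the higher counts was not tested). The adjusted p alone gave 341 and 140 genes. With the replicate block and no variance for rounding there were 350 and 97, and the 70 called named genes then kept 8 of their calls; with the prior at 4 degrees of freedom there were 0 and 0, and 0 of the 70 were called. Without the replicate block, 125 higher and 48 lower genes were called (101 and 42 of them shared), and 48 of the 70 named calls held; the cause was not tested. The sign of each of the 70 changes was the same in every setting in which the gene was tested.

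Without the robust option there were 147 higher and 52 lower genes, with a pseudocount of 4 there were 111 and 46, without a filter 147 and 53, with a mean of at least 10 there were 113 and 46, and with median-of-ratios scaling 112 and 69. Named calls lost with that scaling include those of Thbs1, Mmp23, Meox1, Hcn2, Gpx3 and Anxa5. Without CTR 2 the called members of lists were 14 higher interferon-induced genes, 14 matricellular genes, 11 matrix enzymes, 11 cell cycle genes and 6 lower genes of ketone and branched-chain use (6 also without mCKO 2 and by the adjusted p alone). Without CTR 1 there were 6 higher p53 targets. The call of Tpx2 was lost without CTR 1 or mCKO 1, and that of Ctsk without mCKO 1. The log2 change of Larp7 lay between -0.17 and -0.05 in all settings, never called. Depth is unknown, and for genes under a value of about 8 rounding limits what can be shown.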

Other observations

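Some genes with a very long span on the genome fell in the mCKO apex. This was noticed after the values were seen, the limit of the span was chosen then, and no test was made. Of 67 tested genes whose mean reached 8 and whose annotated span reached 500 kb, 5 fell (7.463%) and 0 rose, against 0.505% falling among all 9305 tested genes of that level. They are Dmd (2257 kb), Ctnna3 (1574 kb), Rbfox1 (1526 kb), Immp2l (931 kb) and Kcnd2 (514 kb). Rbfox1, a splicing regulator of muscle and brain, was 42 and 41 in CTR and 23 and 23 in mCKO (log2 -0.82, SE 0.16, adjusted p = 8.9e-05, limma). The median log2 change over the 67 genes was 0.00, against 0.08 over all genes of that level. Of 357 genes with a span of 200 to 500 kb, 0.28% fell.

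Several called genes outside the lists and outside the rule for naming, chosen after their values were seen, had high values or tight replicates. Ptgds, prostaglandin D synthase, rose from 302 and 292 in CTR to 604 and 613 in mCKO. Glul, glutamine synthetase, rose from 562 and 556 to 818 and 826, and Ndrg4, a cardiac and neuronal protein, from 172 and 300 to 554 and 425. Nipsnap2, a mitochondrial protein, fell from 875 and 899 to 607 and 584. Mtr, methionine synthase, fell from 138 and 112 to 49 and 74. Aldh1a2, which makes retinoic acid and is expressed in the epicardium, rose from 15 and 7 to 22 and 29, beside epicardial marker sums of 53 and 17 against 61 and 98, and the part of those cells in its change was not tested.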
